A study of Mus musculus with 8 samples.

Results

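The 39 genes described here belong to the response to unfolded proteins in the endoplasmic reticulum (ER) and to the response to amino acid shortage. They were taken by symbol from the deposited expression table, which holds 41128 genes, and 39 of 39 were found. By role, 14 encode ER chaperones and folding enzymes, 9 belong to ER degradation and the translocon, 4 are stress sensors, 5 are the Atf4-type genes Asns, Trib3, Chac1, Psat1 and Phgdh, and 7 are other stress and one-carbon genes. Expression was measured by mRNA sequencing of whole sections of distal ileum close to the ileocecal valve, from FVB mice with 1 library per mouse. The knockout (KO) animals carried the Cftrtm1Cam null allele, congenic on FVB. Each had a sex-matched wild-type littermate (WT, genotype Cftr N/N), and the pair is called a couple. There were 3 untreated couples, of which couples 1 and 3 were female and couple 2 was male, and 1 female couple that drank water with the antibiotics ciprofloxacin at 0.3 g/L and metronidazole at 0.5 g/L. All 8 mice, controls included, had been raised on a low fibre diet with an osmotic laxative that was withdrawn before sampling, and no age is given.

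When unfolded proteins collect in the ER, the sensors Ern1 (IRE1 alpha), its gut epithelial relative Ern2 (IRE1 beta), Atf6 and Eif2ak3 (PERK) act in parallel. Ern1 splices the mRNA of Xbp1, Atf6 is cut to release a transcription factor, and both routes lead to chaperones and degradation machinery; Eif2ak3 phosphorylates the initiation factor eIF2 alpha, which lowers general translation and raises translation of Atf4. Atf4 is also reached from amino acid shortage through the kinase Eif2ak4 (GCN2), without the ER, and its targets make asparagine and serine, charge tRNAs and carry amino acids. In the gut the ER branch is known for its part in secretory cells such as Paneth, goblet and plasma cells.

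The promoters are shown here because the 2 branches are known to be read from different sequence elements. RefSeq promoters (build GRCm38.p6, 250 bases before to 50 bases after the start) were matched for 33 of the 39 genes. In each sequence, written 5′ to 3′ on the strand of the gene, capitals mark the match to an element on either strand. The ER stress element was searched as CCAAT, 9 bases of any kind and CCACG, and its second form as ATTGG, 1 base and CCACG; the C/EBP-ATF element, which Atf4 binds with a C/EBP partner, was searched as TGATGNAA.
Hspa5, chr2:34772020-34772048, plus strand: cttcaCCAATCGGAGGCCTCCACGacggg
Hsp90b1, chr10:86705524-86705664, minus strand: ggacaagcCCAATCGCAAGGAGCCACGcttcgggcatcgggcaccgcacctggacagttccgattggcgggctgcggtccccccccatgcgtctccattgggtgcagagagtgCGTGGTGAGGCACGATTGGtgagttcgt
Pdia6, chr12:17266459-17266538, plus strand: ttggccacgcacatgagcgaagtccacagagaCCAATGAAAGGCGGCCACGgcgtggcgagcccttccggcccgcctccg
Creld2, chr15:88819496-88819565, plus strand: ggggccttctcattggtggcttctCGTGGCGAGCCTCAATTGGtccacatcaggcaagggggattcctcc
Herpud1, chr8:94386299-94386398, plus strand: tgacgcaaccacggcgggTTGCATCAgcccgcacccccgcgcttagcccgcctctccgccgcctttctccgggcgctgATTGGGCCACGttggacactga
Asns, chr6:7693215-7693242, minus strand: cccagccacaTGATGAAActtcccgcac
Chac1, chr2:119351022-119351081, plus strand: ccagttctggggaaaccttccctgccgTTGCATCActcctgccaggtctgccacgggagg

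Either form of the ER stress element was found in 10 of 19 ER chaperone and degradation genes with a promoter (52.6%), against 49 of 27025 genes in the whole promoter table (0.181%). The first form was in Calr, Canx, Creld2, Dnajc3, Hsp90b1, Hspa5, Pdia6 and Syvn1, and Hsp90b1 held 2 matches. The second form was in Dnajb11 and Herpud1. Neither form was found in the 5 Atf4-type genes. The C/EBP-ATF element was in 3 of the 5 Atf4-type genes (Asns, Chac1 and Trib3) and in 1 of the 19 ER genes (Herpud1), against 1219 of 27025 genes (4.51%). A further element, TGACGTGG, was in 0 of 33 members and in 193 of 27025 genes (0.714%). The letters CCACG occur in both ER stress forms and in the reverse complement of TGACGTGG. The elements were described from genes such as these, so a match describes a promoter and is no separate evidence that it acted in these mice.

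All 39 members passed the filter on low values, which asked for a value of 1 or more in 3 or more of the 6 untreated libraries. The deposited values are read as RPKM (scaled to exon length and library size). They behave as after quantile normalization in separate sets: couples 1 and 2, couple 3, and the antibiotic couple. Tests without the couple, mean levels and counts of groups that do not overlap set couple 3 beside couples 1 and 2 all the same, and differences within a couple do not cross sets. Read depth is not known. The values of a library summed to between 346794 and 397082. Cftr was 12.4, 9.94 and 10.1 in untreated WT and 3.74, 2.65 and 3.17 in untreated KO, and 13.8 in WT against 4.94 in KO with antibiotics, so every KO library had the lower value of its couple. All 13 enterocyte markers were above 0 in all 8 libraries.

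The levels spanned a wide range in untreated WT. The order of genes assumes the RPKM scale, which allows genes to be compared per length, as the unit is not named. The Ca2+-binding chaperone Calr had the highest mean at 212 ± 39.7 (SD, n = 3). It was followed by the disulfide isomerase Pdia3 at 130.0 ± 40.2, Hspa5 at 112 ± 28.1 and Hsp90b1 at 112 ± 20.8. Calr was above Pdia3 in each WT mouse, and the next 3 in the order did not differ beyond their spread. Atf4 stood among the chaperones at 70.7 ± 9.84, whereas its targets Asns (6.74 ± 0.47), Trib3 (4.21 ± 1.03), Phgdh (3.6 ± 1.27) and Psat1 (3.36 ± 0.389) were low. The 4 sensors averaged between 6.56 (Ern1) and 9.66 (Ern2).

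**Figure D1:**
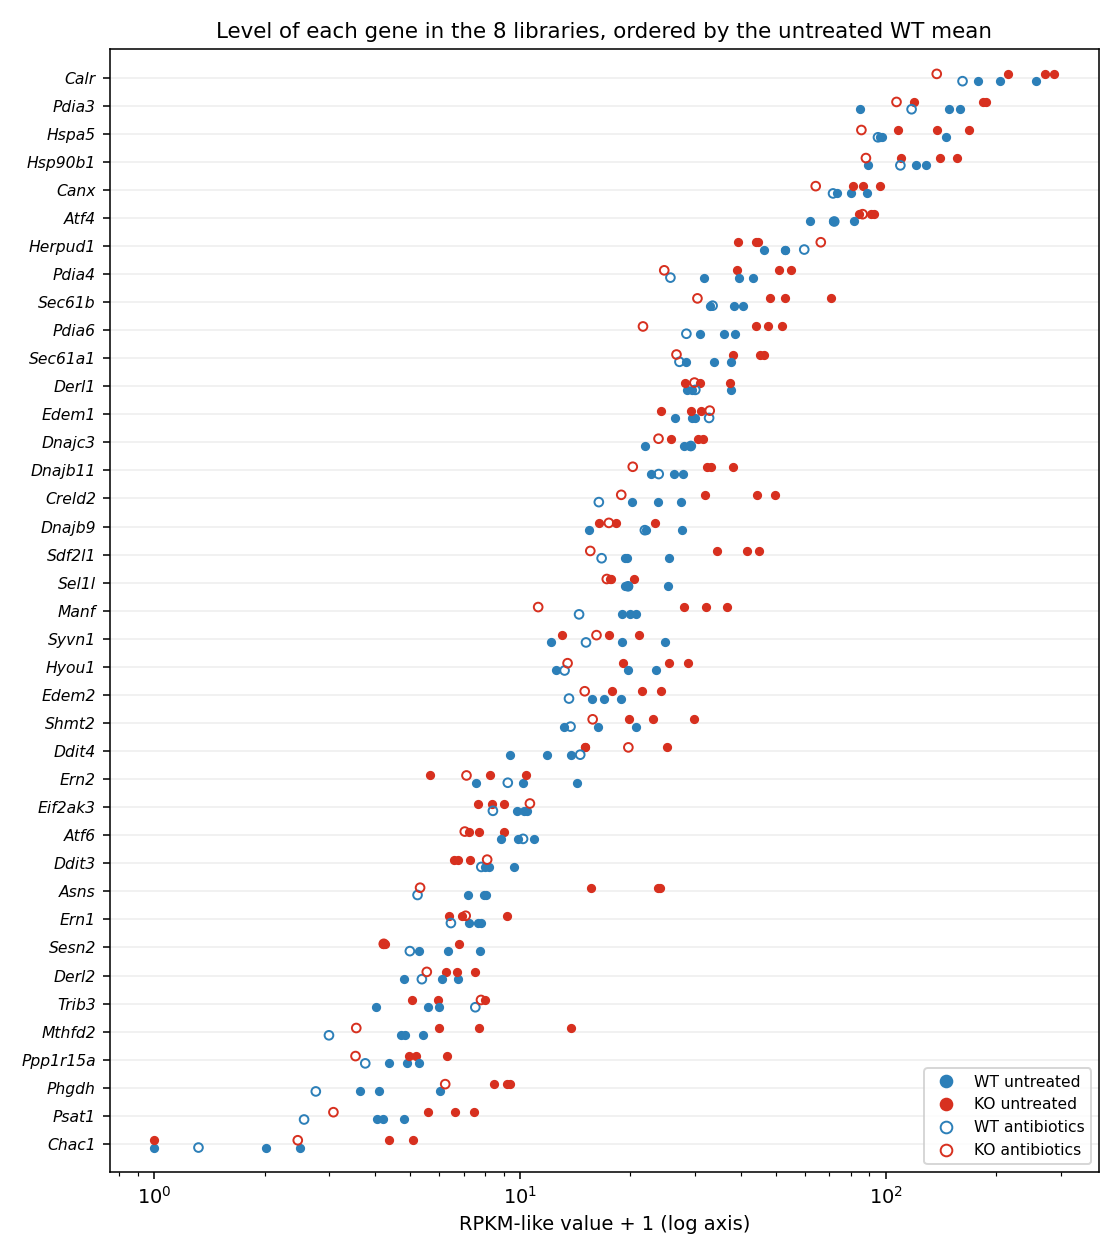
Level of each of the 39 genes in each library, as RPKM-like value plus 1 on a log axis, with genes ordered by their mean in untreated WT. Calr, Pdia3, Hspa5 and Hsp90b1 are at the top and the Atf4-type genes are near the bottom, and antibiotic values belong to a separately normalized set.

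In untreated ileum most chaperone genes and 3 of the 5 Atf4-type genes had higher values in KO than in WT in each couple, while none of the sensors did. Asns, which makes asparagine, rose to 2.99 times the WT mean and was the only member to pass the test without the couple in the model. A further 13 members, 7 of them chaperones, rose once littermates were compared with each other. With limma on log2(value + 1) and Benjamini-Hochberg adjustment, 1 of 39 members was called higher (Asns) and 0 lower at an adjusted p under 0.05, against 1.15% of 11717 genes higher and 1.01% lower. At an unadjusted p under 0.05, 11 members were higher and 0 lower, against 7.25% and 8.71% of all genes. With the couple as a block, 14 members were called higher and 1 lower, against 8.4% and 9.91% of all genes. When a couple was left out of that fit 3 to 4 members were called, Asns and Sdf2l1 each time. KO was above WT in all 3 couples for 23 members (28.1% of all genes) and below in all 3 for 7 (32.5%). The 3 KO values all lay above the 3 WT values for 13 members (10.4% of all genes) and all below for 3 (12.1%). The median log2 difference of KO minus WT was 0.29 over the members and -0.01 over all genes.

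**Figure D2:**
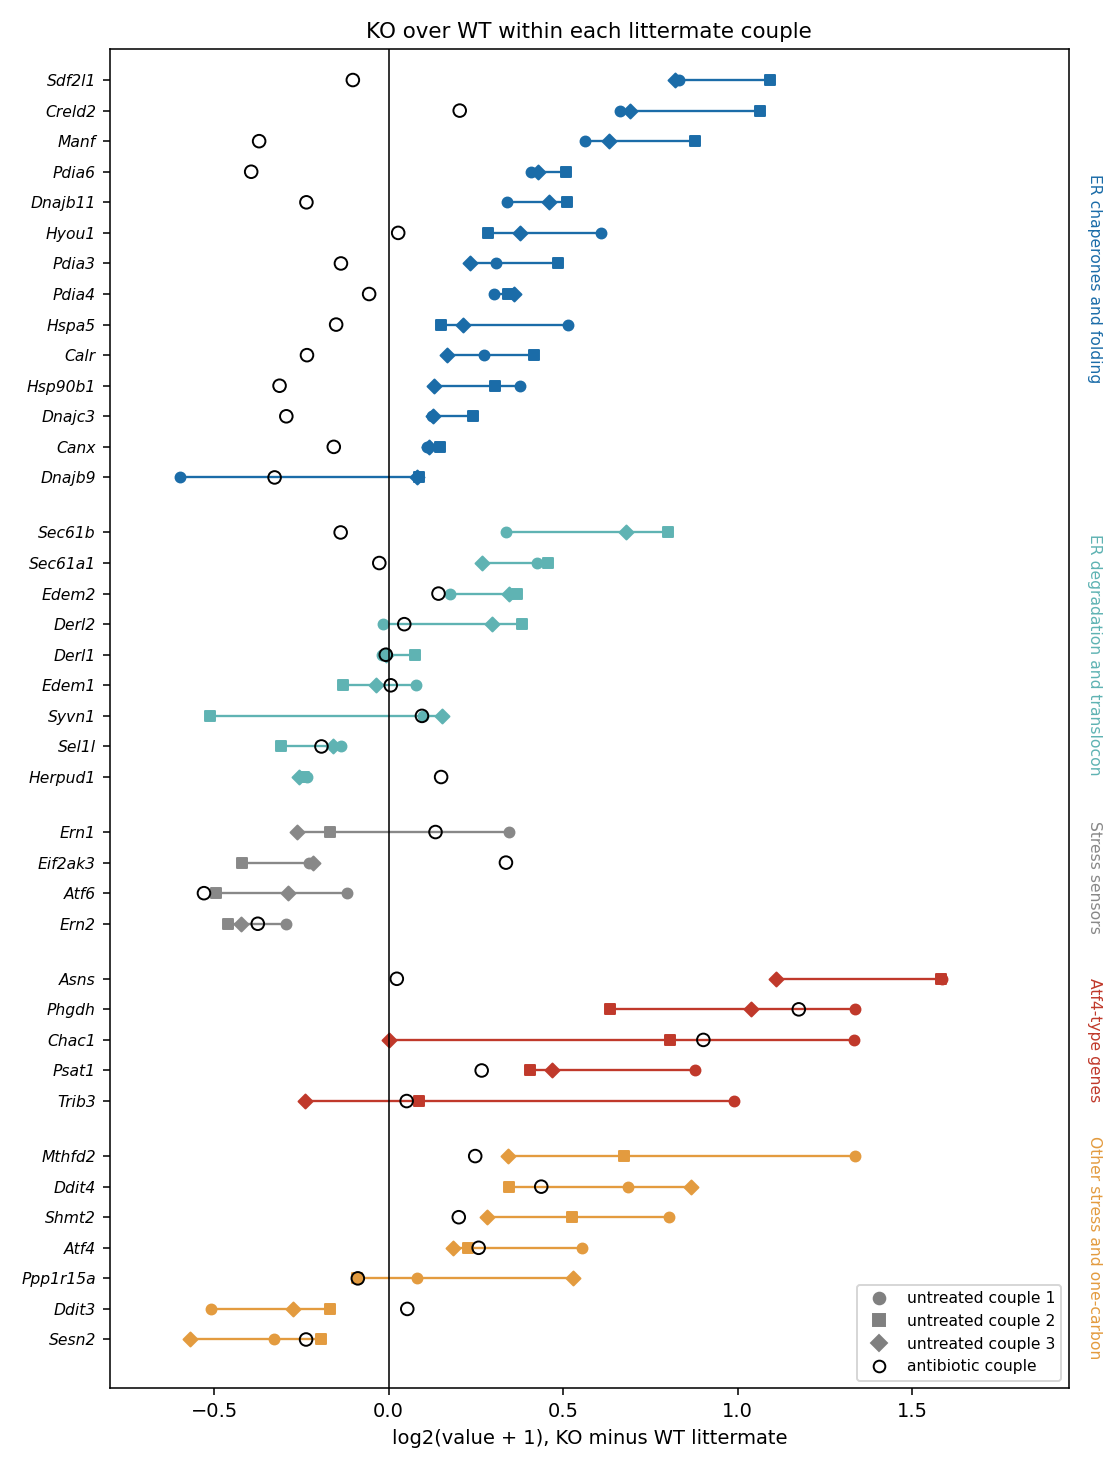
Difference of KO minus WT in log2(value + 1) within each couple for the 39 genes, arranged by role; filled circles, squares and diamonds are untreated couples 1, 2 and 3, and open circles are the antibiotic couple. Chaperones lie mostly to the right of 0 in the untreated couples and mostly to the left in the antibiotic couple, where Phgdh stays to the right.

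Among the 14 chaperones and folding enzymes, values were higher in KO in all 3 couples for 13, the exception being Dnajb9. With limma 0 were called without the block, where 5 were higher and 0 lower at an unadjusted p under 0.05 (7.25% and 8.71% of all genes). With the block 7 rose, against 8.4% of all genes. Their median log2 difference was 0.34, and by couple 0.36, 0.38 and 0.30. The widest difference was at Sdf2l1, a small ER protein that works with the Hspa5 chaperone cycle. Its values were 18.4, 18.6 and 24.5 in WT mice against 33.4, 40.8 and 44 in KO mice of couples 1, 2 and 3. The lowest KO value lay above the highest WT value. The KO mean was 1.92 times the WT mean, a log2 difference of 0.91 (SE 0.19, limma adjusted p = 0.0634; SE 0.09 and adjusted p = 0.012 with the block).

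Creld2, an ER protein with disulfide isomerase activity, was 19.2, 22.8 and 26.5 in WT mice against 31, 48.7 and 43.4 in KO mice. Manf, a secreted ER stress factor that binds Hspa5, was 17.9, 19 and 19.8 in WT mice against 26.9, 35.7 and 31.2 in KO mice. In both genes the groups did not overlap. The log2 difference was 0.81 for Creld2 (limma adjusted p = 0.126, with block 0.0197) and 0.69 for Manf (0.0941, with block 0.0194). Dnajb11, a co-chaperone of Hspa5, was 25.3, 21.7 and 26.8 in WT mice against 32.2, 31.4 and 37.2 in KO mice. The disulfide isomerase Pdia6 was 34.9, 30 and 37.5 in WT mice against 46.7, 43.1 and 50.8 in KO mice. Neither gene overlapped between the groups, and both rose only with the block (log2 difference 0.44 and limma adjusted p = 0.0296 for Dnajb11, 0.45 and 0.0256 for Pdia6).

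Pdia4, a further disulfide isomerase, was 30.8, 42.3 and 38.6 in WT mice against 38.2, 53.9 and 49.8 in KO mice. Hyou1, a large ER chaperone that exchanges nucleotide on Hspa5, was 11.5, 22.5 and 18.6 in WT mice against 18.1, 27.6 and 24.5 in KO mice. The groups of these genes overlapped, while KO was higher in each couple, and both passed with the block (limma adjusted p = 0.0396 for Pdia4 and 0.0445 for Hyou1). Hspa5 (BiP), the central ER chaperone, was 95.1, 96.3 and 144 in WT mice against 136, 107 and 167 in KO mice. The promoter stretch with its ER stress element is printed above. The Hspa5 value of the couple 3 WT mouse was above 2 of the 3 KO mice, and the log2 difference of 0.29 did not pass (SE 0.26, limma adjusted p = 0.653, with block 0.11). Hsp90b1 (0.27), Calr (0.29), Pdia3 (0.34), the lectin chaperone Canx (0.12) and Dnajc3, an inhibitor of PERK signalling (0.16), were likewise higher in KO in each couple and did not pass either test. Dnajb9, a co-chaperone that holds Ern1 inactive, was 26.7, 14.4 and 21 in WT mice against 17.3, 15.4 and 22.3 in KO mice, lower in KO of couple 1 only (-0.14).

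The 9 degradation and translocon genes were divided. Without the block limma called 0 of them, against 1.15% of all genes higher and 1.01% lower. At an unadjusted p under 0.05, 1 was higher and 0 lower, against 7.25% and 8.71% of all genes. The translocon subunits Sec61a1 and Sec61b, which form the channel into the ER, had all KO values above all WT values. Sec61b was 37.3, 39.6 and 32.1 in WT mice against 47.3, 69.8 and 52 in KO mice (log2 difference 0.61, SE 0.20, limma adjusted p = 0.2, with block 0.0339). Sec61a1 was 27.4, 32.8 and 36.7 in WT mice against 37.1, 45.4 and 44.3 in KO mice (0.38, 0.362, with block 0.0387). Shorter genes had higher KO to WT ratios (slopes of -0.0404, -0.157 and -0.133 in log2 per doubling of exon length in couples 1, 2 and 3). With a linear trend on exon length removed the difference of Sec61b was 0.35 and that of Sdf2l1 0.77. Herpud1, an ER membrane protein that brings substrates to the degradation ligase, went the other way. It was 45.2, 52 and 51.8 in WT mice against 38.3, 43.8 and 43.1 in KO mice, with no overlap (-0.25, limma adjusted p = 0.527, with block 0.0695). Its promoter holds both the second ER stress element and a C/EBP-ATF element. The ligase adaptor Sel1l was lower in KO in each couple (-0.20) and the mannosidase-like Edem2 higher (0.30), both without passing. The ligase Syvn1 (-0.09), Edem1 (-0.03) and the channel proteins Derl1 (0.02) and Derl2 (0.22) were mixed over the couples.

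The 10 ER genes with an ER stress element in the promoter had a median log2 difference of 0.28, with 8 higher in KO in all 3 couples and 3 that rose with the block (Creld2, Dnajb11 and Pdia6). The 9 ER genes whose promoter held no match had a median of 0.30, with 5 higher in all 3 couples and 3 that rose with the block (Pdia4, Sdf2l1 and Sec61b). Over all genes, 28.1% were higher in all 3 couples and 8.4% were called higher with the block. The medians of the 10 and the 9 genes were close to each other, and their difference was not tested. Derl1, Hyou1, Manf and Sec61a1 were not matched.

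None of the 4 sensors was higher in KO in all 3 couples (28.1% of all genes), and 3 were lower in all 3 (32.5%). Without the block limma called 0, against 1.15% of all genes higher and 1.01% lower. At an unadjusted p under 0.05 it also held 0, against 7.25% and 8.71%. Ern2 was 9.14, 13.2 and 6.59 in WT mice against 7.27, 9.35 and 4.65 in KO mice. The couples differed more from each other than KO from WT, and KO was the lower mouse each time (log2 difference -0.39, SE 0.30, limma adjusted p = 0.579). With the block Ern2 fell (SE 0.08, limma adjusted p = 0.0371), the only member to do so, against 9.91% of all genes. Eif2ak3 was 8.8, 9.23 and 9.45 in WT mice against 7.37, 6.65 and 8 in KO mice, with no overlap (-0.29, limma adjusted p = 0.374, with block 0.0737). Atf6 was 8.83, 9.87 and 7.83 in WT mice against 8.05, 6.71 and 6.23 in KO mice (-0.30, 0.417, with block 0.0974). Ern1 was 6.24, 6.79 and 6.66 in WT mice against 8.18, 5.93 and 5.39 in KO mice, higher in couple 1 and lower in the others (-0.03, 0.959).

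The 5 Atf4-type genes had a median log2 difference of 0.71, and by couple 1.33, 0.63 and 0.47. The values 0.71 and 1.33 are those of Chac1, a low gene listed at 0 in both mice of couple 3. Those zeros count as a difference of 0 in the couple 3 median. Asns, at chr6:7675169-7693254 on the minus strand, was 6.94, 7.07 and 6.2 in WT mice against 22.8, 23.2 and 14.6 in KO mice. The WT mice lay close together, and the lowest KO mouse was above every WT mouse. The KO mean of 20.2 ± 4.87 was 2.99 times the WT mean of 6.74 ± 0.47 (SD, n = 3 each), a log2 difference of 1.43 (SE 0.20, limma adjusted p = 0.0185, with block 0.00975). With 1 library left out and no block, the adjusted p stayed under 0.05 when the couple 2 WT mouse or the couple 3 KO mouse was dropped. It was 0.0592 and 0.0662 when the WT or the KO mouse of couple 1 was dropped, 0.0601 for the KO mouse of couple 2 and 0.0889 for the WT mouse of couple 3. With a whole couple left out and no block, the limma adjusted p of Asns was 0.119 to 0.212. With all libraries and no filter on low values it was 0.147. The log2 difference was 1.32 to 1.63 over all settings that left out libraries.

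Serine synthesis starts with Phgdh, and Psat1 takes the next step. Phgdh was 2.64, 5.04 and 3.11 in WT mice against 8.19, 8.38 and 7.45 in KO mice. The KO values lay close together above all WT values, and the KO mean was 2.23 times the WT mean (log2 difference 1.00, SE 0.21, limma adjusted p = 0.0632, with block 0.0235). With 1 library left out and no block, its adjusted p ranged from 0.0262 without the WT mouse of couple 2 to 0.245 without the WT mouse of couple 3. With the block and a couple left out, Phgdh was called without couple 2 and not without couple 1 or couple 3. Psat1 was 3.06, 3.23 and 3.8 in WT mice against 6.45, 4.6 and 5.64 in KO mice, again without overlap (0.58, SE 0.16, limma adjusted p = 0.134, with block 0.041).

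Trib3 and Chac1 were not higher in KO in all 3 couples. Trib3, a pseudokinase induced by Atf4 and Ddit3, was 3.04, 4.6 and 4.98 in WT mice against 7.02, 4.95 and 4.06 in KO mice, so that KO was higher in couples 1 and 2 and lower in couple 3 (0.28, limma adjusted p = 0.615, with block 0.451). Chac1, which degrades glutathione, was 1.02 and 1.5 in WT mice against 4.09 and 3.37 in KO mice of couples 1 and 2, and both mice of couple 3 were listed at 0. KO was thus higher in both couples with values above 0 (log2 differences 1.33 and 0.81). Fewer genes are above 0 in couple 3 (11912 in WT and 11931 in KO) than in each library of couples 1 and 2 (20896). A listed 0 in couple 3 thus need not mean absent RNA, and this was not tested. The listed zeros enter the fit of Chac1 (0.71, limma adjusted p = 0.649, with block 0.126). Over the settings that left out libraries the difference was 0.29 to 1.46, and with the block it was called when couple 3 was left out.

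**Figure D3:**
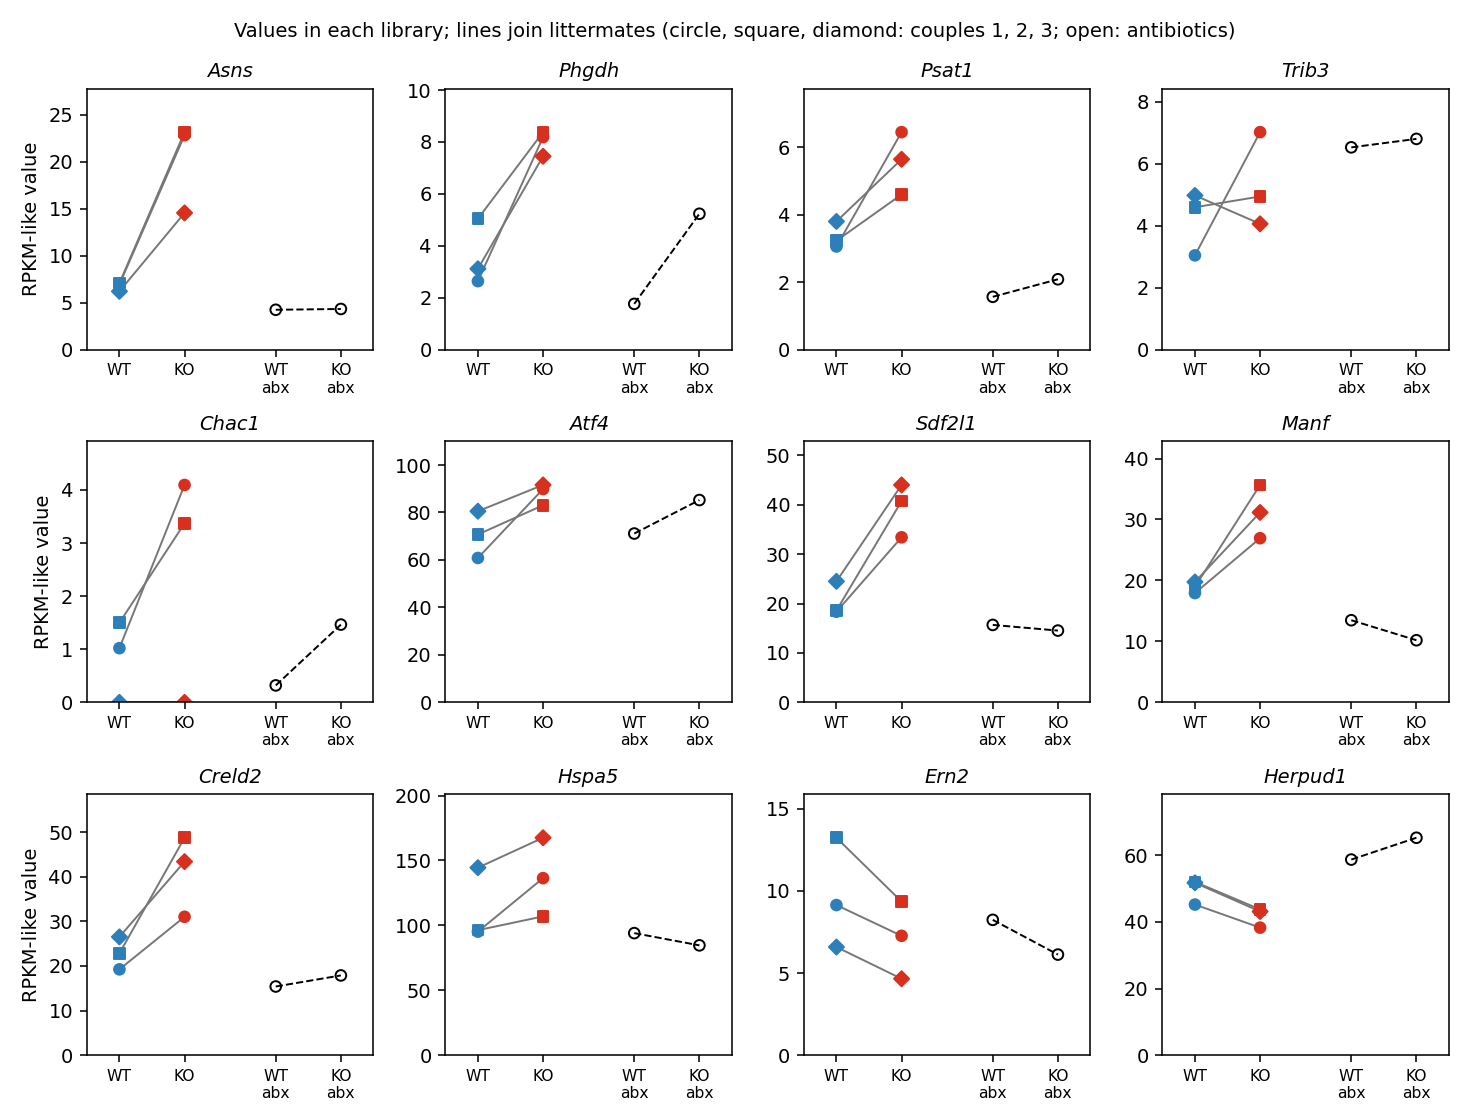
RPKM-like value in each library for 12 of the genes, with lines joining the WT and KO littermates of a couple. Asns, Phgdh, Psat1, Sdf2l1, Manf and Creld2 go up from WT to KO in every untreated couple, Ern2 and Herpud1 go down, and the antibiotic couple is nearly level for Asns.

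Of the 7 other stress and one-carbon genes, Ddit4 and Shmt2 rose with the block, against 8.4% of all genes. Ddit4, an inhibitor of mTORC1, was 8.36, 10.8 and 12.8 in WT mice against 14, 14 and 24.1 in KO mice (log2 difference 0.63, limma adjusted p = 0.281, with block 0.0349). Shmt2, the mitochondrial enzyme that takes a one-carbon unit from serine, was 12.2, 19.7 and 15.3 in WT mice against 22, 28.8 and 18.8 in KO mice (0.54, 0.316, with block 0.0454). Ddit4 did not overlap between the groups, and Shmt2 did. Mthfd2, which works after Shmt2 in mitochondria, was 4.44, 3.84 and 3.73 in WT mice against 12.7, 6.72 and 4.99 in KO mice, above WT in every KO mouse and highest in couple 1 (0.78, 0.242, with block 0.061).

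The mRNA of Atf4 itself was 60.8, 70.7 and 80.5 in WT mice against 89.9, 83 and 91.6 in KO mice, without overlap (0.32, limma adjusted p = 0.452, with block 0.0907); its protein, which is set largely by translation, was not measured. Ddit3 (CHOP), a transcription factor linked to death under lasting ER stress, was 8.61, 7.19 and 6.99 in WT mice against 5.76, 6.28 and 5.6 in KO mice, all KO values being below all WT values (-0.32, 0.347, with block 0.0831). Sesn2, a leucine sensor, had a log2 difference of -0.36, and Ppp1r15a, which returns eIF2 alpha to its dephosphorylated state, of 0.17. Neither passed.

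The ER genes and the Atf4-type genes were set side by side, and the difference between the lists was not tested. The 23 chaperone and degradation genes had medians of 0.30, 0.34 and 0.23 in couples 1, 2 and 3. The Atf4-type genes had 1.33, 0.63 and 0.47 in the same couples, highest in couple 1. With only 5 genes these medians depend on Chac1, which gave the couple 1 median and was listed at 0 in both mice of couple 3. Over all genes tested the medians were -0.02, 0.0025 and -0.03. With the block 9 of the 23 ER genes and 3 of the 5 Atf4-type genes rose, against 8.4% of all genes. None of either list fell, against 9.91% of all genes. In this fit 2 of the ER genes and 0 of the Atf4-type genes were lower at an unadjusted p under 0.05, against 20.8% of all genes.

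Other genes of the pathways, from lists that hold none of the 39, had medians of the same sign. Of 74 other secretory pathway genes tested, limma called 2 higher and 0 lower. At an unadjusted p under 0.05, 15 were higher and 1 lower, against 7.25% and 8.71% of all genes. With the block 15 were called higher and 4 lower, against 8.4% and 9.91% of all genes. The median log2 difference of this list was 0.23. Derl3, a degradation channel protein known from secretory cells including plasma cells, was 2.22, 3.34 and 3.35 in WT mice against 7.29, 7.96 and 6.27 in KO mice (log2 difference 1.05, limma adjusted p = 0.0309). The prolyl isomerase Fkbp11 was 3.95, 4.34 and 5.46 in WT mice against 8.90, 10.2 and 11.7 in KO mice (1.01, adjusted p = 0.0308). With the block the largest rises after these were Ero1l (1.01), Sec11c (0.67) and Nucb2 (0.64), and the 4 that fell were Creb3l3 (-0.68), Creb3l2 (-0.67), Tmbim6 (-0.44) and Wfs1 (-0.40). The transcription factor gene Xbp1 was 45.9, 34.9 and 52 in WT mice against 71.5, 49.9 and 63.5 in KO mice, higher in each couple (0.47, limma adjusted p = 0.36, with block 0.0383); its splicing is not seen in these values.

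Of 53 other amino acid response and integrated stress genes tested, limma called 2 higher and 0 lower. At an unadjusted p under 0.05, 11 were higher and 1 lower, with the same shares of all genes. With the block 9 were called higher and 3 lower, against 8.4% and 9.91% of all genes. The median log2 difference of this list was 0.21. Jdp2, a repressor of the AP-1 and ATF family, was 1.84, 2.24 and 2.47 in WT mice against 12.5, 15.1 and 5.49 in KO mice (log2 difference 1.82, limma adjusted p = 0.0379). Atf5, a close relative of Atf4, was 5.36, 4.28 and 7.77 in WT mice against 21.4, 13.5 and 14.6 in KO mice (1.37, adjusted p = 0.0397). With the block the largest rises after these were Eif4ebp1, a translation repressor (0.94), the cysteine tRNA synthetase Cars (0.83) and Got1 (0.71). The 3 that fell were the amino acid transporter subunit Slc3a2 (-0.54), Aldh18a1 (-0.39) and the kinase Eif2ak1 (-0.36).

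In the antibiotic couple 16 of the 23 ER genes had lower values in KO than in WT, as did 6422 of 11352 genes in all. The median log2 difference of the ER genes was -0.14. The 5 Atf4-type genes were all at or above WT, with a median of 0.27, from 0.02 at Asns to 1.18 at Phgdh. There was 1 couple, so the differences in it have no replicate check. Of the 39 members 19 were above 0 and 20 below, against 4905 and 6422 of 11352 genes. The median log2 difference of the members was -0.01, against -0.04 over all genes. Past 1.5-fold, 2 members were higher (Phgdh and Chac1) and 0 lower, against 6.15% and 4.2% of 11352 genes. The 14 chaperones had a median of -0.20, with 12 below 0 and only Creld2 and Hyou1 above it. Sdf2l1 was 15.7 in WT and 14.5 in KO, Manf was 13.5 and 10.2, Pdia6 was 27.4 and 20.6, and Hspa5 was 94 and 84.6. Herpud1, lower in KO without antibiotics, was 58.7 in WT and 65.3 in KO.

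Asns was 4.24 in WT and 4.32 in KO, a log2 difference of 0.02 against 1.59, 1.58 and 1.11 in the untreated couples. Phgdh was 1.76 and 5.23, a difference of 1.18 that lies within the untreated range of 0.63 to 1.34. Psat1 was 1.56 and 2.08, Trib3 6.53 and 6.81, and Chac1 0.319 and 1.46. In this couple Phgdh had a wide difference between the littermates and Asns had nearly none. Of the secretory and amino acid genes named above, Fkbp11 was 2.79 in WT and 2.09 in KO, Derl3 0.644 and 3.87, Atf5 6.59 and 6.90, and Jdp2 1.57 and 1.98.

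The change of the KO to WT difference with antibiotics was tested as an interaction over all 8 libraries with limma, with the single antibiotic libraries assumed to vary like the untreated ones. At an adjusted p under 0.05 it called 0 of 39 members and 0% of 11534 genes, with or without the block, the smallest adjusted p over all genes being 0.0978 without and 0.0863 with it. At an unadjusted p under 0.05 it held 4 members (Pdia6, Sdf2l1, Manf and Asns) against 4.18% of all genes, and with the block 15 members, 13 of them among the 23 ER genes, against 16%. The interaction was -1.40 for Asns (SE 0.41, limma adjusted p = 0.877, with block 0.143), -1.06 for Manf (SE 0.33, 0.926, with block 0.139) and -1.02 for Sdf2l1 (SE 0.38, 0.999, with block 0.139), and 0.17 for Phgdh (SE 0.42). The antibiotic ratio lay below all 3 untreated ratios for 21 members, among them 13 of the 14 chaperones, against 34.5% of all genes, and above all 3 for 3 members against 33%.

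**Figure D4:**
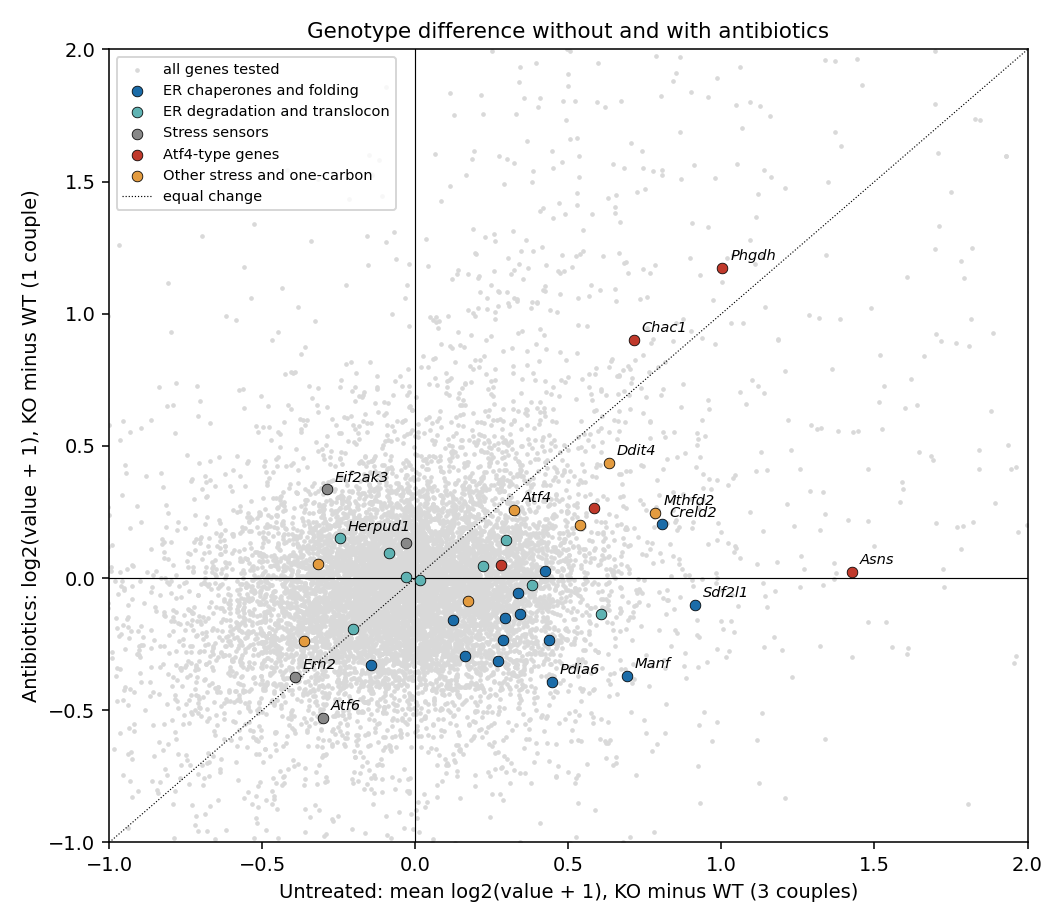
Difference of KO minus WT in log2(value + 1), with the mean of the 3 untreated couples on the x axis and the antibiotic couple on the y axis; grey points are the genes tested, coloured points the 39 members by role, and the dotted line marks equal differences. Asns, Sdf2l1 and Manf lie well below the line, and Phgdh lies close to it.

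Levels with antibiotics belong to a separately normalized set and to other mice, so treatment, couple and normalization cannot be told apart and no test was made. The KO antibiotic library was below all 3 untreated KO libraries for 25 members, 13 of them chaperones, against 41.2% of all genes. The WT antibiotic library was below all 3 untreated WT libraries for 19 members, 8 of them chaperones, against 40.2%. Asns, Psat1 and Phgdh were below every untreated WT mouse in the WT mouse given antibiotics, and Trib3 was above each.

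In whole tissue, more cells of a type and more RNA of a gene per cell cannot be told apart, and the summed levels of several cell type markers differed between the genotypes beside these genes. The 12 plasma and B cell markers in the table summed to 172 to 275 in untreated WT and 344 to 692 in untreated KO. With antibiotics they summed to 97.9 in WT and 463 in KO. Without the block 4 of the markers were called higher in untreated KO, against 1.15% of all genes. Derl3 is also one of these markers. Of the 12 Paneth cell markers, 6 have doubtful values in the WT antibiotic library. All 12 summed to 11258, 4365 and 7273 in WT and 14232, 6884 and 11836 in KO of couples 1, 2 and 3, higher in KO of each couple. With the block 6 of the 12 were called higher, against 8.4% of all genes. The 6 without doubtful values summed to 2710 to 4223 in untreated WT and 4075 to 5244 in untreated KO, again higher in KO of each couple, and to 2004 in WT and 2249 in KO with antibiotics. The 9 T cell markers summed to 28.5 to 36.8 in WT and 70.7 to 89.4 in KO, and to 9.85 and 52.2 with antibiotics.

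The 13 goblet cell markers, from cells that also express Ern2, were divided: with the block Retnlb and Spink4 were called higher and Clca3 and Fcgbp lower, and 7 markers were lower and 3 higher in KO of all 3 couples. Their sum was 5083 to 7111 in WT and 3976 to 5633 in KO, lower in KO of each couple, and 4469 and 3145 with antibiotics. For these and the following marker counts, the shares over all genes were 8.4% called higher and 9.91% lower with the block. In all 3 couples 28.1% of all genes were higher and 32.5% lower. The 13 enterocyte markers summed to 18773 to 26198 in WT and 10554 to 18011 in KO, and to 27478 and 31719 with antibiotics. Of these markers 9 were lower and 1 higher in KO of all 3 untreated couples. Their median log2 difference was -0.51 untreated and -0.02 with antibiotics. The markers did not move together with antibiotics: Apoa4 was 2774 in WT and 6822 in KO, and Sis was 546 and 292. Of the 11 proliferating crypt markers, 9 were higher in KO in all 3 couples and 5 were called higher with the block, with a median log2 difference of 0.31 untreated and -0.04 with antibiotics. Their sum is mostly Olfm4, which was lower in KO of each couple; the other 10 summed to 101 to 124 in WT and 135 to 169 in KO, and to 89.3 and 99.9 with antibiotics. The 8 smooth muscle and stroma markers overlapped (423 to 601 in WT, 319 to 523 in KO, 395 and 336 with antibiotics). The 8 macrophage markers in the table summed to 132 to 150 in WT and 197 to 305 in KO, and to 96.6 and 168 with antibiotics, with much of this from Lyz2, which is also a Paneth marker. The 7 without Lyz2 summed to 70.1 to 83.3 in WT and 82.3 to 120 in KO, and to 59.5 and 63.1 with antibiotics. Ms4a1 among the B cell markers and Defa21 among the Paneth markers were listed at 0 in some libraries. The part of these cell types in the differences of the 39 genes was not tested.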

How the data were processed

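The authors deposited 1 table of normalized expression values per gene for 8 libraries, 1 per mouse. Per the series' design text, Illumina HiSeq and Ion Proton reads were mapped in the CLC workbench, version 7.5, to build GRCm38, release 76; the instrument of each library is not stated. The unit is not named, and the values of the authors are read as RPKM. Over 10720 genes, log2(value + 1) fell with exon length in each library, with slopes from -0.314 to -0.609 per doubling of length. Such a slope does not settle the unit. Sorted values are identical in the 4 libraries of couples 1 and 2, as after quantile normalization; littermates share 96.5% to 96.7% of distinct values in couple 3 and 90.8% to 93.5% in the antibiotic couple, and none with other couples. Depth per library is therefore unknown, no counting error can be given, and the precision rests on 3 mice a group.

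Values were tested as log2(value + 1) with limma 3.58.1 in R 4.3.3 (trend in the prior variance, two-sided, Benjamini-Hochberg over all genes tested, threshold 0.05), keeping genes at 1 or more in 3 or more libraries. A fold change on this scale understates the change of low genes. The couples are littermates: deviations from the group means correlated within couples at 0.62, 0.64 and 0.51, so fits with the couple as a block are given beside the unblocked ones. For the antibiotic couple, past 1.5-fold stands in for a call. In its WT library 403 genes had tied, zero or very low values unlike the other libraries. They were left out of the interaction and of counts and shares for the antibiotic couple, and marker sums that hold any are also given without them; none is among the 39. The fits without the block were run on simulated data with independent libraries, unlike the correlated littermates here. The fits with the block were not simulated. Promoters came from RefSeq (GRCm38.p6) and gene coordinates from GENCODE M21. Alternatives covered the pseudocount, filters, normalization, the variance trend, the block, exon length and leaving out libraries. The members and lists were chosen with earlier results of these data known. Members called with or without the block, the 5 Atf4-type genes and the 4 sensors are given by library; other pathway genes are named if called, or with the block among the 5 largest changes each way.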

Additional observations from a re-analysis of the deposited data

How the results depend on the processing

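With no filter on low values 7 genes were higher and 4 lower in untreated KO in place of 135 and 118, and 0 members were called; with quantile normalization 2 members were called higher. Blocking on the couple gave 984 genes higher and 1161 lower, and 14 members higher and 1 lower. Leaving out libraries or couples without the block gave 0 to 74 genes higher, 0 to 69 lower and 0 to 2 members higher. Leaving out a couple with the block gave 200 to 248 genes higher, 221 to 275 lower, 3 to 4 members higher and 0 lower; Asns and Sdf2l1 were called each time. The median of the 23 ER genes was 0.20 to 0.37 with libraries left out. The interaction called 74 genes, no member among them, when the doubtful genes of the WT antibiotic library were kept. Small differences changed sign with libraries left out: Derl1 (-0.10 to 0.14), Dnajb9 (-0.37 to 0.083), Edem1 (-0.10 to 0.077), Ern1 (-0.22 to 0.088), Ppp1r15a (-0.0048 to 0.30), Syvn1 (-0.37 to 0.15) and Trib3 (-0.077 to 0.54). The cause of these changes in counts and signs was not tested. The block leave-outs, the kept doubtful genes, the marker sums with genes left out and the exon length trend were chosen after seeing the data. With that trend removed the median was 0.29 for the ER genes and 0.63 for the Atf4-type genes, the latter being the value of Chac1. Depth is unknown, and with 1 antibiotic couple the spread of its differences was not measured.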
